A study of Drosophila melanogaster with 16 samples.

Results

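The genes described here are 8 nuclear genes that act in mitochondrial fission, fusion, transport and mitophagy in Drosophila melanogaster: Drp1, Marf, Opa1, Miro, milt, Pink1, park and Mul1. They were chosen by FlyBase symbol from the 17698 genes counted in each library. All 8 had reads in all 16 libraries and all 8 passed the filter on low counts in every comparison. None of the 8 passed the thresholds of the edgeR test in any comparison of genotypes, and the gene nearest to them was Mul1, which averaged 14.7 ± 4.25 CPM (read counts scaled to the size of each library) in larval nervous systems with TFAM overexpression and ATF4 RNAi and 7.64 ± 2.02 CPM with TFAM overexpression alone (SD, n = 4 each).

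Mitochondria in neurons are divided by the dynamin-related GTPase Drp1 and joined by mitofusin (Marf in the fly) at the outer membrane and Opa1 at the inner membrane. They are carried along axons on kinesin, to which the outer membrane GTPase Miro is coupled by the adaptor Milton, the product of milt. Damaged mitochondria accumulate the kinase Pink1, which recruits and activates the ubiquitin ligase Parkin (park), and the tagged organelle is removed by autophagy. Mul1 is a ubiquitin ligase of the outer membrane which, like Parkin, promotes the removal of mitofusin, and in the fly it acts alongside the Pink1 and Parkin pathway.

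The study asked how neuronal mitochondrial stress and the transcription factor ATF4 alter gene expression in the larval central nervous system (CNS). PolyA RNA was sequenced from 4 genotypes with 4 replicates each, and each replicate was the whole CNS of 20 wandering larvae of the last instar raised at 25 °C. The genotypes were nsybGal4>UAS-TFAM3M, UAS-ATF4 RNAi (TFAM o/e + ATF4 RNAi), nsybGal4>UAS-TFAM3M (TFAM o/e), nsybGal4 driving UAS-ATF4-HA (ATF4 o/e) and nsybGal4/+ (Control). All of them carried nSyb-Gal4, a driver active in neurons throughout the nervous system, whereas the RNA came from all cells of the dissected tissue, so a change limited to neurons would be diluted by RNA from glia and other cells. In such whole-tissue samples, fewer cells of a type and less RNA per cell cannot be told apart. The labels do not say whether replicates came from separate crosses, so p-values measure only the spread between these samples. The sample numbers of ATF4 o/e form a series apart from those of the other genotypes. The labels do not say whether the ATF4 o/e libraries were prepared and sequenced with the others. A difference of preparation could therefore not be told apart from this genotype in any comparison with ATF4 o/e.

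Library totals ranged between 18215062 and 24778270 counts. TFAM, the mitochondrial transcription factor that packages mitochondrial DNA, averaged 544 ± 123 CPM in TFAM o/e + ATF4 RNAi, 538 ± 118 CPM in TFAM o/e, 79.5 ± 10.3 CPM in ATF4 o/e and 97.0 ± 29.7 CPM in Control (SD, n = 4 each). The gene crc, which encodes the fly ATF4, averaged 156 ± 6.89, 203 ± 32.6, 184 ± 5.15 and 203 ± 17.0 CPM in the same order (SD, n = 4 each). The libraries labelled ATF4 o/e therefore did not show a raised crc level (log2 fold change against Control −0.15, edgeR adjusted p = 0.530). However, 73.5% of the exon bases of crc are shared with CG46314 on the same strand. Reads on shared bases went largely uncounted in these files, as described below, so the crc counts come mainly from its unshared part. Whether reads of the UAS-ATF4-HA transgene fall on that part was not tested. The crc level of all 4 TFAM o/e + ATF4 RNAi libraries was below that of all 4 TFAM o/e libraries, without passing the threshold (log2 fold change −0.38, SE 0.11, edgeR adjusted p = 0.339), and TFAM passed in TFAM o/e over Control (log2 fold change 2.46, edgeR adjusted p = 0.00341). Markers of neurons were abundant in all libraries, with summed levels of 6 genes between 2136 and 4496 CPM. Control replicate 3 stood apart from the other libraries in how expression scaled with transcript length: the slope of log2(CPM + 1) on log2 exon length was 0.202 in this library, against 0.440 to 0.785 in the other 15. Fold changes of single genes against Control that are given below, and the intervals, are therefore also given without it.

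How much of each gene could collect reads differed. All positions are in the dm6 build, and each of the 8 is a protein-coding gene. The exons of Drp1 (2L: 2581281 to 2585430, minus strand), Marf (X: 6365949 to 6370924, plus strand), Opa1 (2R: 14230611 to 14235449, minus strand), milt (2L: 7037823 to 7056010, plus strand), Pink1 (X: 6683798 to 6687302, plus strand) and Miro (3R: 24034362 to 24038847, minus strand) had between 83.3% and 99.7% of their bases free of any other gene's exons. By contrast, only 62.9% of the exon bases of Mul1 (3L: 4021457 to 4023501, plus strand) were free, the other 615 bases being shared with CG11594 on the opposite strand. For park (3L: 21194754 to 21196853, minus strand) the share was 34.9%, since 1076 of its 1687 exon bases lie opposite exons of the antisense RNA gene asRNA:CR45951. In these files, 110 of 111 genes wholly covered by exons of the opposite strand had 0 counts in every library, as had 239 of 239 genes wholly covered on the same strand, compared with 1031 of 11208 genes that share no base. Reads on shared bases thus went largely uncounted whatever their strand, and the counts of park and Mul1 come mainly from their unshared part.

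Drp1, which encodes the GTPase that constricts and divides mitochondria, was expressed at similar levels in the 4 genotypes. It had 166, 150.3, 156 and 140.0 CPM in the 4 TFAM o/e + ATF4 RNAi libraries, 154, 134, 160.5 and 168 CPM in TFAM o/e, 156, 156, 144 and 147 CPM in ATF4 o/e, and 164, 164, 112 and 147 CPM in Control. The ranges of all genotypes overlapped, and the single value below 134 CPM was that of Control replicate 3. The fitted log2 fold change of TFAM o/e over Control was 0.06 (SE 0.15, edgeR adjusted p = 0.910), and without Control replicate 3 it was −0.04.

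Of the fusion genes, Marf encodes the mitofusin that tethers and merges outer membranes. It had 111, 94.3, 89.6 and 99.0 CPM in TFAM o/e + ATF4 RNAi, 101, 83.4, 97.7 and 103 CPM in TFAM o/e, 99.0, 99.1, 96.6 and 86.8 CPM in ATF4 o/e, and 97.0, 95.9, 67.5 and 101 CPM in Control. Opa1, the dynamin-like GTPase that merges inner membranes and shapes cristae, had 147, 127, 118 and 119.9 CPM in TFAM o/e + ATF4 RNAi, 132, 112, 132 and 138 CPM in TFAM o/e, 133, 132, 124 and 125 CPM in ATF4 o/e, and 129, 126, 97.2 and 126 CPM in Control. For both genes the 3 other Control libraries lay within the range of the overexpression genotypes, and Control replicate 3 was the lowest of all 16 libraries. The log2 fold change of TFAM o/e over Control was 0.08 for Marf (SE 0.15) and 0.09 for Opa1 (SE 0.13), and without Control replicate 3 these values were −0.03 and 0.01.

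The transport genes were also similar between genotypes. Miro had 106, 109, 113 and 107 CPM in TFAM o/e + ATF4 RNAi, 98.1, 119, 107 and 101 CPM in TFAM o/e, 106, 113, 102 and 105 CPM in ATF4 o/e, and 101, 107, 110.0 and 112 CPM in Control. It was the steadiest of the 8 genes, its highest library being 1.21 times its lowest, and Control replicate 3 was not at an extreme. The Milton adaptor gene milt had 208, 188, 176 and 181 CPM in TFAM o/e + ATF4 RNAi, 195, 162, 187 and 199.8 CPM in TFAM o/e, 201, 189, 195 and 179 CPM in ATF4 o/e, and 192, 181, 123 and 164 CPM in Control. Its Control mean was the lowest of the 4 genotypes, and its lowest library of all 16 was Control replicate 3. The log2 fold change of ATF4 o/e over Control was 0.21 (SE 0.15, edgeR adjusted p = 0.530), and it was 0.10 without Control replicate 3.

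**Figure D1:**
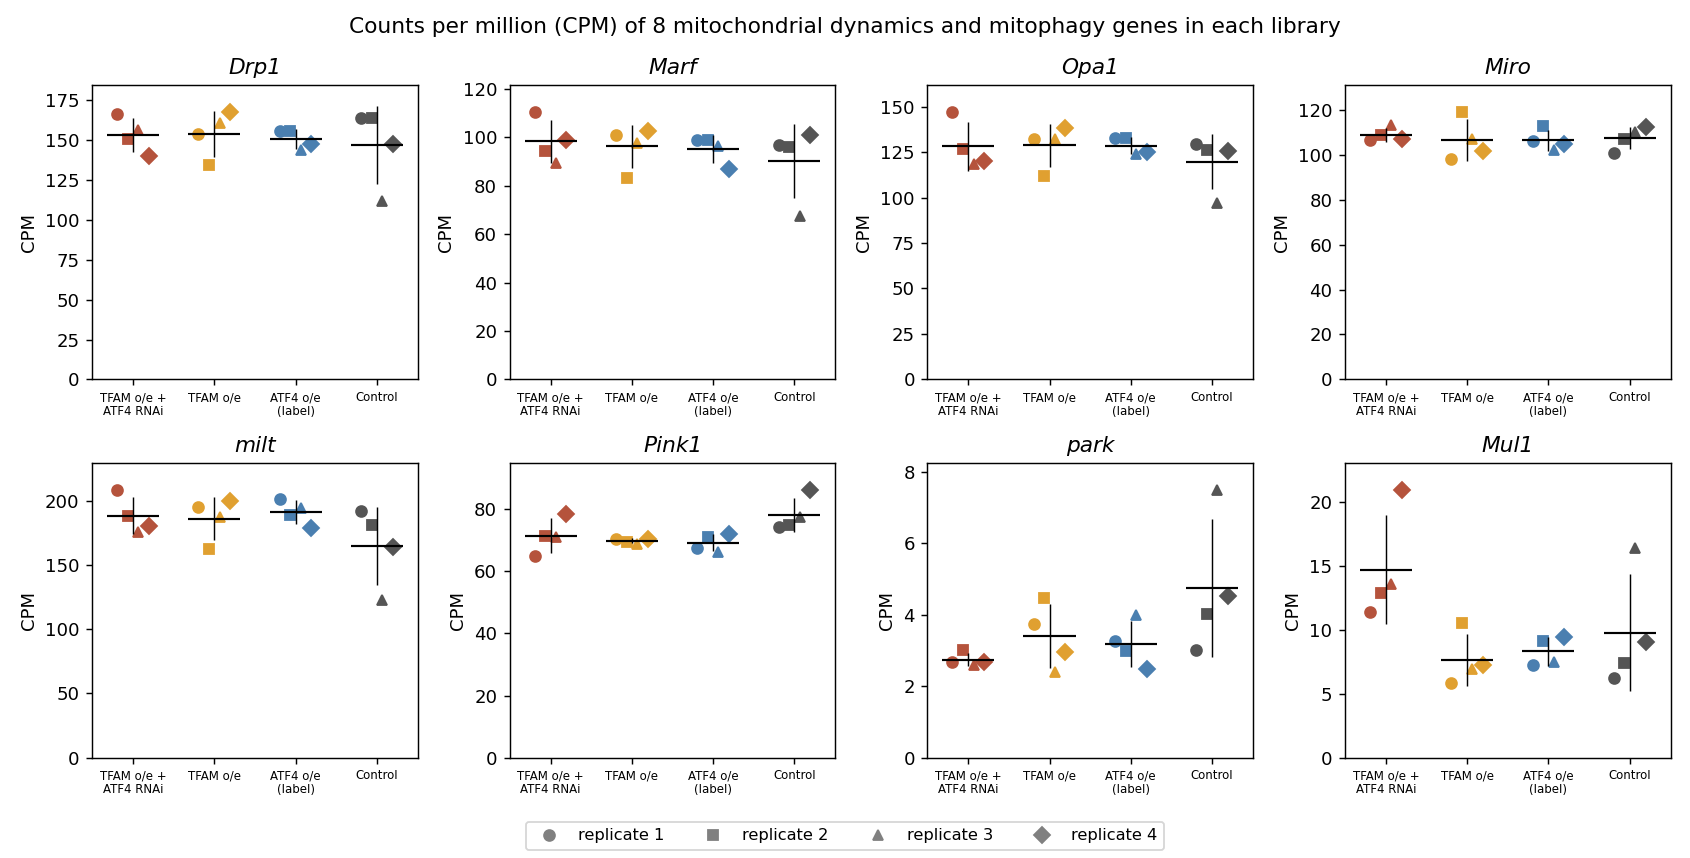
CPM of each gene (vertical axes, starting at 0) in each library of the 4 genotypes (horizontal axes), with marker shape giving the replicate number, a horizontal line for the mean and a vertical line for 1 SD on either side (n = 4). Control replicate 3 (dark triangles) is lowest for Drp1, Marf, Opa1 and milt and highest for park, and for Mul1 the 4 TFAM o/e + ATF4 RNAi libraries, between 11.4 and 20.9 CPM, lie above the 4 TFAM o/e libraries, between 5.81 and 10.5 CPM.

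Among the mitophagy genes, Pink1 encodes the kinase that marks damaged mitochondria. It had 65.0, 71.2, 71.1 and 78.5 CPM in TFAM o/e + ATF4 RNAi, 70.5, 69.5, 68.7 and 70.5 CPM in TFAM o/e, 67.6, 70.9, 66.3 and 72.0 CPM in ATF4 o/e, and 74.1, 74.7, 77.4 and 86.1 CPM in Control. All 4 Control libraries were above all 4 TFAM o/e libraries and above all 4 ATF4 o/e libraries, while the TFAM o/e + ATF4 RNAi libraries overlapped Control. The difference was small. The log2 fold change of TFAM o/e over Control was −0.18 (SE 0.09, edgeR adjusted p = 0.880). For ATF4 o/e over Control the log2 fold change was −0.18 (SE 0.08, edgeR adjusted p = 0.530). An exact two-sided permutation test on CPM can give no p below 0.0286 with 4 libraries against 4, and libraries that do not overlap always reach that value, so it adds nothing to the ranges. These comparisons share the 4 Control libraries and are not independent of each other. Pink1 was the 1 gene of the 8 below Control without overlap in either comparison, against a background of 1.54% of the 9355 genes tested for TFAM o/e and 3.48% of the 9410 genes tested for ATF4 o/e. In either direction these shares were 3.46% and 6.93%. Neither fit passed the threshold, and without Control replicate 4, the highest library, the log2 fold changes were −0.11 and −0.11, while without Control replicate 3 they were −0.17 and −0.17.

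Summed levels of markers of other tissues also differed in part between these genotypes. For 6 fat body markers they were 59.9 to 113 CPM in TFAM o/e, 74.8 to 329 CPM in ATF4 o/e and 131 to 509 CPM in Control, so that TFAM o/e lay apart from Control and ATF4 o/e overlapped it. For 5 ring gland markers they were 606 to 819 CPM in TFAM o/e, 595 to 682 CPM in ATF4 o/e and 710.0 to 949 CPM in Control, so that ATF4 o/e lay apart from Control and TFAM o/e overlapped it. Those of 6 glial markers, at 1098 to 1650, 1144 to 1497 and 1378 to 2232 CPM in the same order, overlapped in both comparisons, with medians of 1221, 1276 and 1930 CPM. The remaining lists overlapped Control in both comparisons. In the same order, medians of their summed levels were 60.6, 59.8 and 42.9 CPM for 5 hemocyte markers. For 7 muscle markers they were 62.8, 55.1 and 49.9 CPM, and for 6 salivary gland markers 31.0, 3.57 and 5.04 CPM. For 5 neuroblast markers they were 524, 508 and 516 CPM, and for the 6 neuron markers 3849, 4279 and 3639 CPM. All of these markers had reads, and their part in the Pink1 difference was not tested.

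The Parkin gene, park, was the weakest of the 8, with 57 to 127 counts per library. It had 2.69, 3.02, 2.59 and 2.68 CPM in TFAM o/e + ATF4 RNAi, 3.74, 4.46, 2.41 and 2.97 CPM in TFAM o/e, 3.27, 2.98, 4.00 and 2.48 CPM in ATF4 o/e, and 3.00, 4.01, 7.49 and 4.54 CPM in Control. The highest value was that of Control replicate 3, and the remaining Control libraries overlapped the other genotypes. The largest difference was that of TFAM o/e + ATF4 RNAi and Control, with a log2 fold change of −0.82 (SE 0.27, edgeR unadjusted p = 0.0149, adjusted p = 0.646), and the exact permutation test, two-sided, gave p = 0.0571. It was 1 of 8 genes below an unadjusted p of 0.05 on the lower side in this comparison, where 2.81% of 9421 genes were. In either direction the share was 4.70%. Without Control replicate 3 the log2 fold change was −0.50. TFAM o/e and ATF4 o/e had log2 fold changes of −0.50 (SE 0.31) and −0.57 (SE 0.29) over Control, which were −0.19 and −0.27 without that library.

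Mul1, the outer membrane ubiquitin ligase gene, showed the largest difference of the 8. It had 11.4, 12.9, 13.6 and 20.9 CPM in TFAM o/e + ATF4 RNAi, 5.81, 10.5, 6.96 and 7.27 CPM in TFAM o/e, 7.26, 9.14, 7.45 and 9.40 CPM in ATF4 o/e, and 6.21, 7.42, 16.4 and 9.07 CPM in Control, from 135 to 460 counts per library. All 4 TFAM o/e + ATF4 RNAi libraries were above all 4 TFAM o/e libraries and above all 4 ATF4 o/e libraries, and of the Control libraries only replicate 3 reached their range. TFAM o/e + ATF4 RNAi was not tested against ATF4 o/e, and no share over all genes is given for that pair. The fold change of TFAM o/e + ATF4 RNAi over TFAM o/e was 1.91 (log2 fold change 0.93, SE 0.22, 95% interval 0.43 to 1.44). The difference did not pass the threshold over all 9436 genes tested (edgeR unadjusted p = 0.00206, adjusted p = 0.191). Of all genes tested in this comparison, 1.73% were higher without overlap and 2.49% were higher at an unadjusted p under 0.05, and Mul1 was 1 of 8 in both respects. In either direction these shares were 4.15% and 5.81%.

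The Mul1 difference was sensitive to the test used. With DESeq2 in place of edgeR the log2 fold change was 0.94 and passed (DESeq2 adjusted p = 0.00875), and it also passed with the length slope of each library as a covariate (log2 fold change 0.80, SE 0.13, edgeR adjusted p = 0.0162). Over all genes with an adjusted p in this comparison, DESeq2 called 1.37% and the fit with the covariate called 1.58%. With each of the 8 libraries left out in turn the log2 fold change lay between 0.73 and 1.12 and did not pass (edgeR adjusted p between 0.0538 and 0.497). Against Control, the log2 fold change of TFAM o/e + ATF4 RNAi was 0.56 (SE 0.31), without Control replicate 3 it was 0.93 (edgeR adjusted p = 0.175), and with the covariate it was 0.76 and passed (edgeR adjusted p = 0.00970), where that fit called 1.89% of all genes.

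The level of Mul1 moved with other measures. Within TFAM o/e + ATF4 RNAi the length slopes of replicates 1 to 4 were 0.727, 0.635, 0.553 and 0.484, and replicate 4, with the lowest slope, had the highest Mul1 level. In TFAM o/e the highest Mul1 level, 10.5 CPM, was in replicate 2, which had the lowest slope of that genotype, 0.440. CG11594, the neighbour whose exons overlap those of Mul1, averaged 20.8 ± 6.41 CPM in TFAM o/e + ATF4 RNAi and 13.1 ± 3.16 CPM in TFAM o/e (SD, n = 4 each), with a log2 fold change of 0.66 (SE 0.21, edgeR unadjusted p = 0.0120, adjusted p = 0.473). Whether reads of CG11594 outside the annotated shared bases contributed to the counts of Mul1 was not tested.

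Over the 5 comparisons of genotypes, the 8 genes gave 40 tests. None was called by edgeR (adjusted p below 0.05 and at least a 1.2-fold change), 2 had an unadjusted p under 0.05 (park and Mul1, above), and 1 was called by DESeq2 (Mul1). The share of all genes called by edgeR was 0.299% for TFAM o/e versus Control, 0.765% for ATF4 o/e versus Control, 0.551% for TFAM o/e + ATF4 RNAi versus TFAM o/e, 0.563% for TFAM o/e + ATF4 RNAi versus Control and 1.41% for TFAM o/e versus ATF4 o/e, so that few calls among 8 genes would be found at the background rate. DESeq2 called 1.04%, 1.69%, 1.37%, 1.07% and 2.37% of the genes to which it gave an adjusted p, in the same order. An edgeR unadjusted p under 0.05, in either direction, was found for 4.34%, 8.91%, 5.81%, 4.70% and 7.74% of all genes in the same order. The libraries of the groups did not overlap for 1 of the 8 genes in each of the first 3 comparisons and for 0 in the other 2, where the shares over all genes were 3.46%, 6.93%, 4.15%, 3.59% and 6.01% in the same order. The median log2 fold change of the 8 genes was 0.01, 0.01, 0.02, 0.05 and 0.00 in the same order, beside −0.01, −0.02, 0.00, −0.02 and 0.00 over all genes tested.

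For the 6 genes other than park and Mul1, the intervals bound the differences that these libraries leave room for. The 95% intervals of the fold change lay between 0.833 and 1.198 for TFAM o/e + ATF4 RNAi over TFAM o/e and between 0.839 and 1.17 for TFAM o/e over ATF4 o/e. Against Control they were wider, between 0.772 and 1.43 for TFAM o/e, between 0.776 and 1.45 for ATF4 o/e and between 0.775 and 1.42 for TFAM o/e + ATF4 RNAi. Without Control replicate 3 these bounds were 0.778 and 1.24, 0.792 and 1.21, and 0.785 and 1.22.

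**Figure D2:**
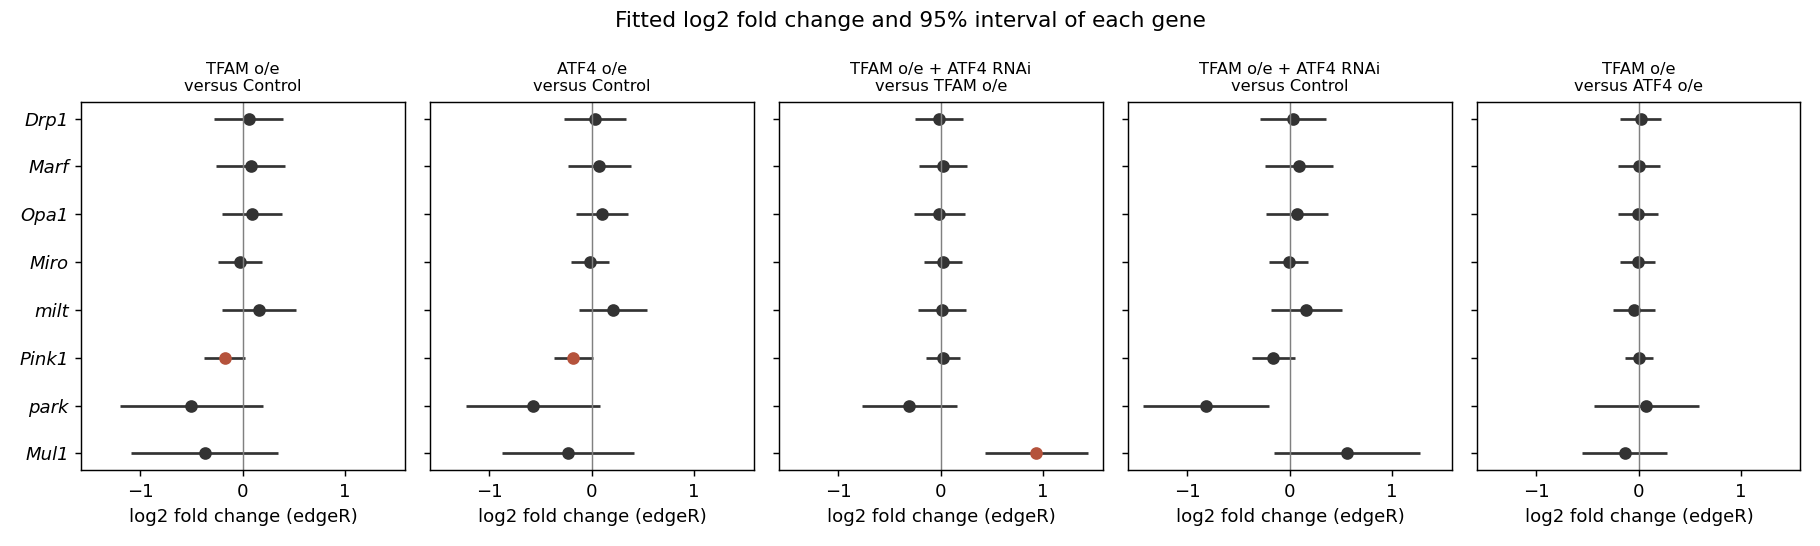
Fitted log2 fold change (points, horizontal axes) and its 95% interval (bars) for each gene in the 5 comparisons, each with 4 libraries against 4; red points mark genes whose libraries do not overlap between the groups. The 3 red points are Pink1 at −0.18 in TFAM o/e and in ATF4 o/e versus Control and Mul1 at 0.93 in TFAM o/e + ATF4 RNAi versus TFAM o/e.

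Ratios between genes were taken within each library. In CPM, the ratio of Opa1 to Drp1 was 0.836 ± 0.0542 in TFAM o/e + ATF4 RNAi, 0.836 ± 0.0177 in TFAM o/e, 0.853 ± 0.00746 in ATF4 o/e and 0.820 ± 0.0468 in Control (SD, n = 4 each). The ratio of Marf to Drp1 averaged 0.644 ± 0.0567, 0.625 ± 0.0226, 0.633 ± 0.0342 and 0.617 ± 0.0463 in the same order. With all 4 Control libraries, differences between genotypes in these ratios of fusion to fission genes were smaller than the SD within Control. Without Control replicate 3 the Control means were 0.805 ± 0.0423 for Opa1 to Drp1 and 0.621 ± 0.0555 for Marf to Drp1 (SD, n = 3). The ATF4 o/e mean of Opa1 to Drp1 then lay above that of Control by more than this SD, with overlapping ranges. The ratio of milt to Miro averaged 1.73 ± 0.168, 1.77 ± 0.291, 1.80 ± 0.120 and 1.55 ± 0.339 in the same order, and the lower Control mean was 1.69 without Control replicate 3. That of Pink1 to Marf averaged 0.732 ± 0.0982, 0.730 ± 0.0695, 0.729 ± 0.0689 and 0.886 ± 0.178, and the higher Control mean was 0.799 without that library. The ranges of all 4 genotypes overlapped for both of these ratios.

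Levels of different genes can be compared only per length, and for this CPM was divided by the unshared exon length in kb. On this scale Drp1 was highest in every genotype, at 56.2 ± 4.01, 56.5 ± 5.29, 55.3 ± 2.21 and 53.8 ± 8.95 CPM per kb in TFAM o/e + ATF4 RNAi, TFAM o/e, ATF4 o/e and Control (SD, n = 4 each), and in each genotype its lowest library lay above the highest library of the next gene. Miro, Opa1 and Marf followed, with Control means of 34.0, 30.2 and 27.6 CPM per kb, and Miro and Opa1 overlapped in all 4 genotypes. Pink1 and milt came next. Pink1 was above milt in Control, at 26.9 ± 1.91 and 21.7 ± 4.00 CPM per kb without overlap, whereas in the other genotypes their libraries overlapped. Mul1 and park were the lowest in every genotype. Mul1 averaged 14.1 ± 4.08 CPM per kb and park 4.67 ± 0.321 CPM per kb in TFAM o/e + ATF4 RNAi, without overlap, and in Control they averaged 9.39 ± 4.39 and 8.09 ± 3.28 CPM per kb and overlapped. Part of this order depends on the length used. Per kb of all exon bases Opa1 was above Miro in every genotype (Control means of 30.1 and 28.3 CPM per kb), and Pink1 and milt overlapped in Control, whereas Drp1 remained the highest and Mul1 and park the lowest in every genotype.

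**Figure D3:**
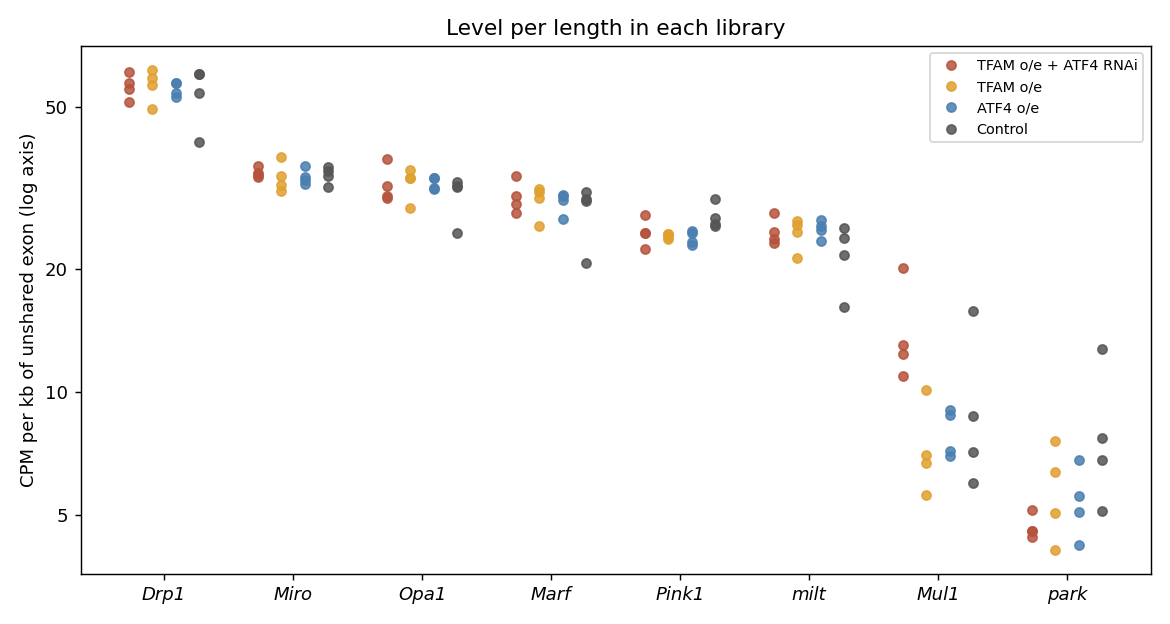
Level of each gene per kb of unshared exon (log vertical axis, CPM per kb), 1 point per library, coloured by genotype, genes in the order of their Control means. Drp1, with a Control mean of 53.8 CPM per kb, stands above the next gene in all 4 genotypes, and within each genotype Mul1 and park have the lowest means.

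Across the 16 libraries Drp1, Marf, Opa1 and milt varied together, and park, Miro, Mul1 and Pink1 ran against them to differing degrees. Pearson r of log2(CPM + 1) was 0.93 between Marf and Opa1, 0.92 between Opa1 and milt and 0.90 between Opa1 and Drp1. Without Control replicate 3 these values were 0.84, 0.82 and 0.78. The r between Marf and milt was 0.89, between Drp1 and milt 0.87 and between Marf and Drp1 0.84. These fell further without that library, to 0.68, 0.63 and 0.58. For park it was between −0.77 (with milt) and −0.64 (with Marf), and these became −0.39 and −0.11 without that library, on which most of the relation rests. For Miro it was between −0.49 (with milt) and −0.38 (with Drp1), and these became −0.69 and −0.44. For Mul1 it was between −0.57 (with Drp1) and −0.41 (with Marf), and these became −0.45 and −0.16. For Pink1 it was between −0.56 (with milt) and −0.24 (with Marf), and these became −0.62 and −0.03. The correlations are given as a description, since libraries share the tissue, the preparation and the length trend. In the library with the slope of 0.202, Drp1, Marf, Opa1 and milt were at their lowest of 16, park was at its highest and Mul1 at its second highest, while Miro ranked 5 and Pink1 ranked 3 from the top. Exon lengths are 7667 bases for milt, 3968 for Opa1, 3617 for Marf and 2868 for Drp1. They are 3791 bases for Miro, 3239 for Pink1, 1687 for park and 1656 for Mul1, so Miro and Pink1 are longer than Drp1. The part that the length trend plays in each level was not tested beyond the covariate above.

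**Figure D4:**
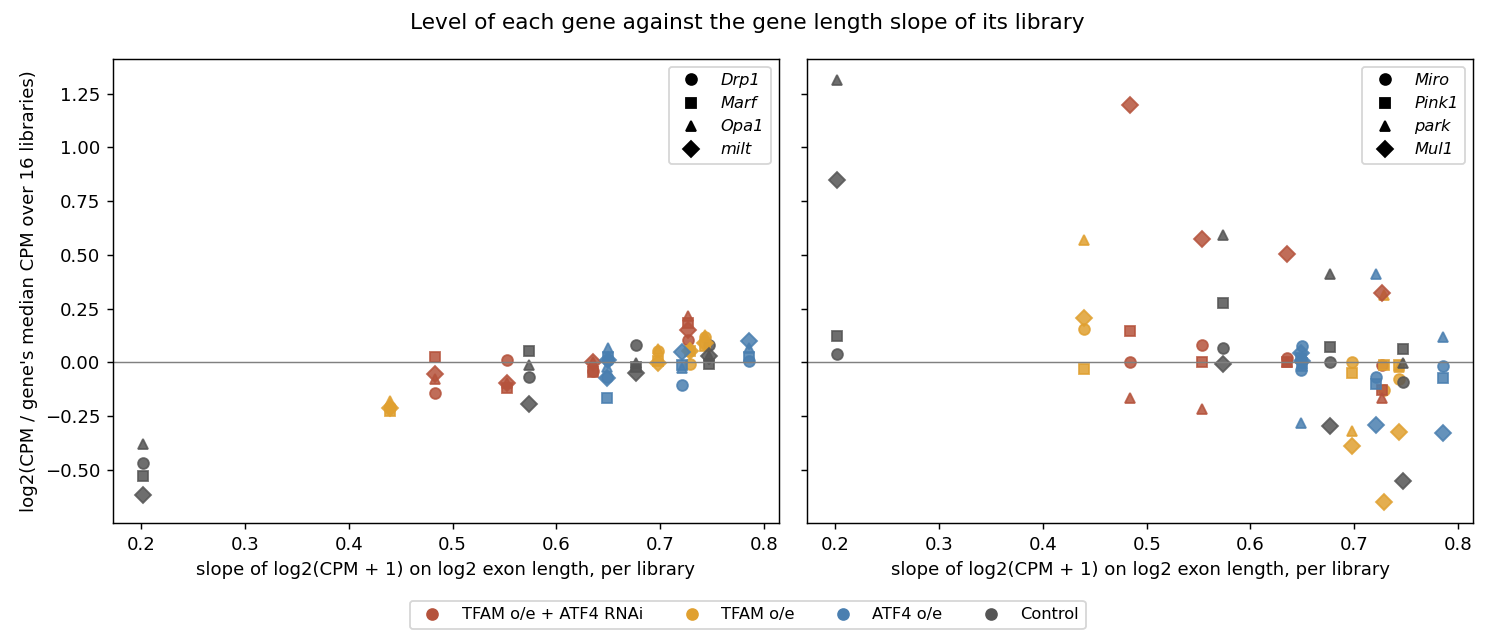
Level of each gene relative to its own median over 16 libraries (vertical axes, log2 scale) against the slope of log2(CPM + 1) on log2 exon length of the library (horizontal axes), coloured by genotype, marker shape giving the gene. At the slope of 0.202 (Control replicate 3) the 4 genes of the left panel lie below 0 and the 4 of the right panel lie above it. There Miro and Pink1 lie above 0 by less than park and Mul1.

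The genes whose levels ran most like those of the 8 were sought among 7055 genes with a mean of at least 10 CPM, by Pearson r over the 16 libraries. The likest genes were yrt and Psc for milt (r = 0.980 and 0.984), CG32425 and Glg1 for Opa1 (0.973 and 0.966), mAcon1 and Karybeta3 for Drp1 (0.963 and 0.962) and rod and Msh6 for Marf (0.948 and 0.948). Without Control replicate 3 these values were 0.932 and 0.948 for milt and 0.954 and 0.938 for Opa1. For Drp1 they were 0.906 and 0.900, and for Marf 0.850 and 0.846. The likest genes of Mul1 were SmydA-4 and CstF64 (0.946 and 0.935), and their values were 0.936 and 0.928 without Control replicate 3. Values were lower for park (Syt7 and Sting, 0.887 and 0.858), Pink1 (Cp110 and Aldh, 0.874 and 0.837) and Miro (Uba4 and mRpL50, 0.862 and 0.838), and for Syt7 the value was 0.737 without Control replicate 3. With a mean below 10 CPM, park was not a candidate, and none of the other 7 was among the 2 likest genes of another of the 8.

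Other genes of the same processes were taken from a list of 28, which included fission factors such as Fis1 and Tango11, the inner membrane protease YME1L, the kinesin chains Khc and Klc, and the autophagy receptor ref(2)P (p62 in mammals). Of these, 27 passed the filter and were tested. None was called by edgeR in any of the 5 comparisons. At an unadjusted p under 0.05 there was 1 of 27 in TFAM o/e versus Control, 1 in ATF4 o/e versus Control, 1 in TFAM o/e + ATF4 RNAi versus TFAM o/e, 1 in TFAM o/e + ATF4 RNAi versus Control and 4 in TFAM o/e versus ATF4 o/e, where the shares over all genes were 4.34%, 8.91%, 5.81%, 4.70% and 7.74%. DESeq2 called 1 of the 27 in TFAM o/e + ATF4 RNAi versus TFAM o/e and 1 in TFAM o/e versus ATF4 o/e, where it called 1.37% and 2.37% of all genes, and none in the other comparisons. The libraries of the groups did not overlap for 1, 3, 1, 1 and 3 of the 27 in the order of the 5 comparisons. Over all genes the shares were 3.46%, 6.93%, 4.15%, 3.59% and 6.01%. The median log2 fold change of the list was 0.02, −0.05, −0.01, −0.02 and 0.01 in the same order.

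The gene with the smallest p in 2 of the comparisons was ref(2)P, whose product binds ubiquitin on cargo and links it to the autophagosome. It had 141, 133, 134 and 119 CPM in TFAM o/e + ATF4 RNAi, 182, 152, 177 and 181 CPM in TFAM o/e, 146, 142, 154 and 139 CPM in ATF4 o/e, and 148, 158, 106 and 122 CPM in Control. All TFAM o/e libraries were above all TFAM o/e + ATF4 RNAi libraries, while they overlapped Control. The log2 fold change of TFAM o/e + ATF4 RNAi over TFAM o/e was −0.40 (SE 0.10, edgeR unadjusted p = 0.00290, adjusted p = 0.228). This passed with DESeq2 (DESeq2 adjusted p = 0.0276) and without TFAM o/e replicate 2 (log2 fold change −0.46, edgeR adjusted p = 0.0389). The log2 fold change of TFAM o/e over Control was 0.36 (SE 0.15, edgeR adjusted p = 0.880), and 0.27 without Control replicate 3.

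YME1L, the protease that cleaves Opa1 in mammals, had the smallest p in the 2 comparisons that hold ATF4 o/e. It had 112, 125, 113 and 117 CPM in TFAM o/e, 97.8, 99.6, 91.4 and 98.8 CPM in ATF4 o/e and 103, 113, 118 and 109 CPM in Control. All ATF4 o/e libraries were below all TFAM o/e and all Control libraries. The log2 fold change was 0.26 for TFAM o/e over ATF4 o/e (edgeR adjusted p = 0.163) and −0.19 for ATF4 o/e over Control (edgeR adjusted p = 0.530), which was −0.15 without Control replicate 3. The remaining gene was ntc, which encodes an F-box protein, with 10.6, 9.55, 10.9 and 9.45 CPM in TFAM o/e + ATF4 RNAi and 12.2, 12.4, 19.3 and 11.4 CPM in Control. Its log2 fold change was −0.48 (SE 0.18, edgeR adjusted p = 0.870), 40.6% of its exon bases are shared with CG32264, and its highest library was Control replicate 3, without which the log2 fold change was −0.26. fzo, the mitofusin paralogue of Marf known for its role in the male germ line, had at most 0.596 CPM and 14 counts in any library and was not tested.

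**Figure D5:**
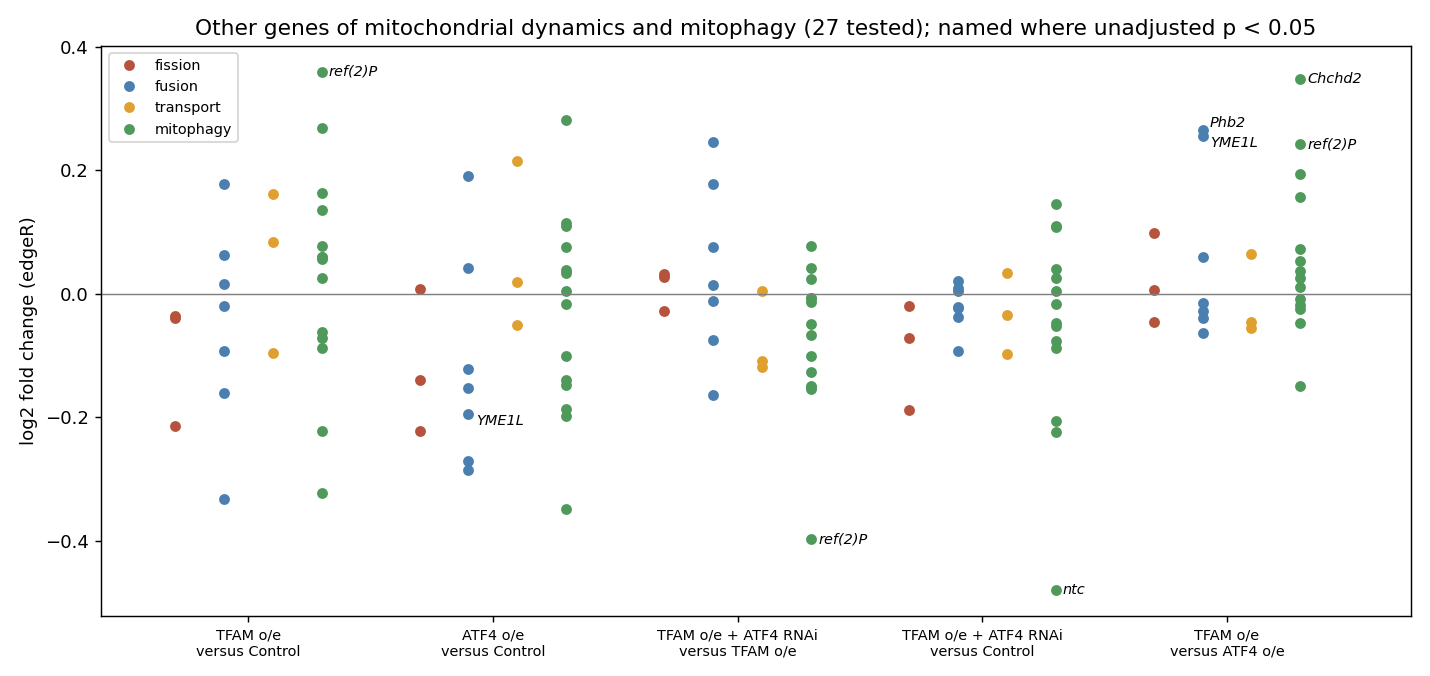
Fitted log2 fold change (vertical axis) of the 27 tested genes of the list in each of the 5 comparisons (horizontal axis), coloured by role, with names at genes whose unadjusted p was under 0.05. The extremes among named genes are ref(2)P at 0.36 in TFAM o/e versus Control and ntc at −0.48 in TFAM o/e + ATF4 RNAi versus Control, and none of the points passed the threshold.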

How the data were processed

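Reads of stranded polyA libraries were aligned by the authors to dm6 with Bowtie2 2.3.4.2 and counted per gene with featureCounts 1.6.3, per the submitters' processing notes. The deposited values are raw counts for 17698 genes in each of 16 libraries, without normalization. The tools were run in Galaxy with default settings, and the annotation used for counting is not given in the sources used here.

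Symbols, exons and positions came from the BDGP release 6 annotation, in which 17560 genes had both a symbol and exon lengths. Counts were tested in R 4.3.3 with edgeR 4.0.16 (TMM normalization, filterByExpr, quasi-likelihood test) on the 8 libraries of each comparison. Benjamini-Hochberg adjustment ran over all genes tested, and calls required an adjusted p below 0.05 and at least a 1.2-fold change. CPM were computed with TMM factors. DESeq2 1.42.0 and other alternatives were run on the same counts. In counts simulated once for each of the 5 comparisons, 2.61% to 5.35% of edgeR calls and 12.6% to 21.1% of DESeq2 calls were false, against a nominal 5%. The limit allowed for DESeq2 was set after its share was seen. The simulated counts were drawn with the spread that edgeR had fitted to each gene, and held no length trend and no outlying library. This setting may favour edgeR, and the shares cannot show how either tool performs on the real libraries. Genes were ranked for likeness on log2 CPM with 1 added.

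Libraries of 1 genotype were further apart than counting error alone gives (chi-square per degree of freedom 8.64 to 368). For each replicate number, deviations from the genotype means were correlated between genotypes to see whether numbers pair libraries. The correlation exceeded 0.1 for 2 of 4 numbers in TFAM o/e versus Control, 1 of 4 in ATF4 o/e versus Control, 1 of 4 in TFAM o/e + ATF4 RNAi versus TFAM o/e, and 3 of 4 in the other 2 comparisons, so numbers were not taken to pair libraries.

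The 8 genes and the gene lists were chosen with earlier results of these data known. Named in every comparison were the 8 genes, the targeted genes and fzo, and of the list of 28, any gene called and otherwise the gene with the smallest p in each comparison. For likeness, the 2 genes with the highest r were named. Of 47 marker genes of 8 tissues or cell types, 46 were matched.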

Additional observations from a re-analysis of the deposited data

Results flagged for a closer look

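Within the 32 groups of 4 libraries formed by the 8 genes and 4 genotypes, 2 held a library that lay far from the others by Dixon's criterion, which chance alone meets in about 1 of 20 groups. Marf had 67.5 CPM in Control replicate 3, whereas the other Control libraries had 95.9 to 101 CPM. Opa1 had 97.2 CPM in the same library, and 126 to 129 CPM in the others. This library also had the length slope of 0.202, and the part of that slope in these low values was not tested.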

How the results depend on the processing

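Each result was recomputed under 15 alternatives: DESeq2, DESeq2 size factors, no filter on low counts, no fold threshold, all 4 genotypes in 1 fit, a replicate block, the length slope as a covariate, and each library left out in turn. All alternatives were listed as planned, but earlier results of these data were known when the genes and lists were chosen. Of 600 log2 fold changes of the 8 genes, 526 kept their direction and side of the threshold, 3 passed it (Mul1, given in the report) and 71 changed sign. The count of the 8 genes called stayed 0 except for 1 (Mul1) with DESeq2 and 1 with the covariate in TFAM o/e + ATF4 RNAi versus TFAM o/e, and 1 with the covariate in TFAM o/e + ATF4 RNAi versus Control. With the replicate block it was 0 in all 5 comparisons. Of the list of 27, DESeq2, the covariate and the fit without TFAM o/e replicate 2 each called 1 gene (ref(2)P) in TFAM o/e + ATF4 RNAi versus TFAM o/e. In TFAM o/e versus ATF4 o/e, DESeq2 called 1 (Chchd2, adjusted p = 0.0499), the covariate 2 (Chchd2, 0.29, edgeR adjusted p = 0.0149; ref(2)P, 0.28, edgeR adjusted p = 0.00607) and the fit without TFAM o/e replicate 2 called 1 (ref(2)P, 0.32, edgeR adjusted p = 0.0303). With libraries left out, the counts lay between 0 and 1. The covariate called 1.58% of all genes in TFAM o/e + ATF4 RNAi versus TFAM o/e. Leaving libraries out gave 27 to 71 calls over all genes there, and 70 to 212 in TFAM o/e versus ATF4 o/e. The other alternatives, the covariate among them, gave 131 to 320 calls over all genes in TFAM o/e versus ATF4 o/e. Chchd2 was named after its values were seen. Over all genes, the counts called were 28 (9 to 121 over the alternatives), 72 (21 to 208), 52 (21 to 163), 53 (31 to 178) and 133 (70 to 320) in the order of the comparisons in the report. The lowest were with the block for the first 3 (9, 21 and 21).

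With the covariate, these log2 fold changes took the other sign. They were −0.021 for Marf and −0.042 for Drp1 in TFAM o/e versus Control. They were 0.23 for Mul1, −0.068 for Marf, −0.0090 for Opa1, −0.11 for Drp1 and 0.0042 for Miro in ATF4 o/e versus Control. They were 0.051 for Opa1 and 0.042 for Drp1 in TFAM o/e + ATF4 RNAi versus TFAM o/e. They were −0.0067 for Drp1 in TFAM o/e + ATF4 RNAi versus Control. They were 0.031 for Opa1 and 0.00028 for milt in TFAM o/e versus ATF4 o/e. Miro in TFAM o/e + ATF4 RNAi versus Control was 0.0049 with DESeq2, 0.0017 with DESeq2 size factors, 0.019 with no filter and 0.00051 with all genotypes in 1 fit. Pink1 in TFAM o/e versus ATF4 o/e was −0.0015 with DESeq2 size factors and −0.00099 with all genotypes in 1 fit. Opa1 in TFAM o/e versus ATF4 o/e was 0.0023 with no filter. Miro in TFAM o/e versus ATF4 o/e was 0.00019 with no filter. Marf in TFAM o/e versus ATF4 o/e was −0.00042 with the replicate block. The causes were not tested.

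With libraries left out in turn, the log2 fold changes that changed sign had these lowest and highest values. In TFAM o/e versus Control they were −0.058 and 0.0099 for Miro, −0.53 and 0.0057 for Mul1, −0.028 and 0.17 for Marf and −0.042 and 0.14 for Drp1. In ATF4 o/e versus Control they were −0.40 and 0.14 for Mul1, −0.034 and 0.14 for Marf, −0.067 and 0.096 for Drp1 and −0.044 and 0.017 for Miro. In TFAM o/e + ATF4 RNAi versus TFAM o/e they were −0.049 and 0.077 for Marf, −0.057 and 0.052 for milt, −0.098 and 0.033 for Opa1, −0.016 and 0.058 for Pink1, −0.082 and 0.035 for Drp1 and −0.016 and 0.076 for Miro. In TFAM o/e + ATF4 RNAi versus Control they were −0.015 and 0.12 for Opa1, −0.064 and 0.096 for Drp1, −0.036 and 0.023 for Miro and −0.011 and 0.17 for Marf. In TFAM o/e versus ATF4 o/e they were −0.015 and 0.019 for Pink1, −0.043 and 0.081 for Marf, −0.052 and 0.028 for Miro, −0.063 and 0.21 for park, −0.050 and 0.068 for Opa1, −0.088 and 0.029 for milt and −0.027 and 0.098 for Drp1. The depth behind park, 57 to 127 counts per library, limits what can be said of its differences.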
